A study of Mus musculus with 6 samples.

Results

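The antigen receptor gene segments of the deposited count table, together with Jchain, were compared between IL-10-producing and IL-10-negative group 2 innate lymphoid cells (ILC2s) of the mouse lung. Members were all rows whose gene type began with IG_ or TR_, plus Jchain, the joining chain of polymeric IgM and IgA. They numbered 92 of 21017 genes: 38 immunoglobulin (IG) genes, 53 T-cell receptor (TR) genes and Jchain. By segment type they were 78 variable (V) segments and 13 constant (C) genes, with no row for a diversity segment, a joining segment or a pseudogene.

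Per the labels, all cells came from lungs of IL-10GFP mice, which carry a green fluorescent IL-10 reporter, on a C57BL/6J background at 8 weeks of age. Mice received recombinant IL-33 intranasally 3 times at 0.5 µg, and their sorted ILC2s spent 48 h in culture with 10 ng/mL each of IL-4, IL-7 and IL-2. Both groups share all of this and differ only in the final sort, into IL-10-producing cells (3 libraries) and IL-10-negative cells (3 libraries). Whether the libraries of a group stem from different mice or cultures is not stated in the labels. All p-values therefore refer to the spread among these 6 libraries, and that spread may be technical.

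Antigen receptors are assembled in developing B and T cells by V(D)J recombination, which joins a V segment, in some loci a D segment, and a J segment ahead of the constant exons. The IGH, IGK and IGL loci encode antibody heavy and light chains, and the TRA, TRB, TRG and TRD loci encode the chains of αβ and γδ T-cell receptors. ILC2s are lymphocytes without a rearranged antigen receptor on their surface, and constant genes can be transcribed from loci that have not completed recombination. V segment transcripts come mainly from rearranged loci, although unrearranged V segments can be transcribed as well.

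Library totals ran from 47012914 to 69511359 counts. Il10, the gene of the reporter used for sorting, ran from 840 to 854 CPM (counts scaled to library size with TMM factors) in the libraries labelled IL-10-producing and from 13 to 14.2 CPM in the others. All 10 ILC2 markers were tested, with 4 called higher and 4 lower in IL-10-producing libraries (median log2 fold change -0.04). For this and the other marker counts of this paragraph, the shares over all 16654 genes tested were 17.1% higher and 18.6% lower. Their summed level was 14812 to 14946 CPM in IL-10-producing and 13735 to 13856 CPM in IL-10-negative libraries. Most of it came from Il2ra, which was higher (5835 against 4206 CPM), and Il1rl1, which was lower (3299 against 4069 CPM). Markers of other cell types were also present. Of 14 αβ T-cell markers 12 were lower and 1 higher in IL-10-producing libraries, with a summed level of 119 to 120 CPM against 180 to 183 CPM, most of it from Ccr7 (65.8 against 64 CPM) and Lef1 (41.5 against 33.1 CPM). Of 8 tested B-cell markers 6 were lower and 1 higher. Their sum over 10 rows, 24.6 to 27.7 CPM against 23.4 to 23.9 CPM, came mainly from Cd79b (15.5 against 14.5 CPM) and Fcmr (8.9 against 4.76 CPM). Of 7 tested γδ T-cell markers 5 were lower and none higher (median log2 fold change -1.72), with a sum of 388 to 411 against 402 to 418 CPM that was almost all Maf (396 against 397 CPM). Of 6 tested natural killer cell markers 4 were lower and 2 higher, and of 7 tested neutrophil markers 5 were lower and none higher. The neutrophil sum was 3.23 to 3.85 against 46.8 to 50.7 CPM, in IL-10-negative libraries mainly Mpo (0.954 against 30.6 CPM). Ltf and Ngp did not pass (adjusted p = 0.161 and 0.286). The natural killer cell sum was 77.3 to 89 against 25.2 to 25.9 CPM, mainly Gzma (76 against 10.3 CPM), and Ncr1, a defining marker, was at 0 in IL-10-producing libraries. The part of such cells in the results below was not tested, and in these bulk libraries fewer cells of a type and less RNA per cell cannot be told apart.

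The receptor segments split by family. The 92 members held 0.0238% to 0.0249% of all counts in IL-10-producing libraries and 0.0327% to 0.0333% in IL-10-negative libraries. A total of 35 members passed the filter on low counts. In IL-10-producing cells, 13 of these were higher and 17 lower by the quasi-likelihood test of edgeR at a Benjamini-Hochberg adjusted p under 0.05 over all genes. Over the 16654 genes tested, 17.1% were called higher and 18.6% lower. At a change of at least 2-fold, 11 members were higher and 12 lower, against 0.739% and 2.92% of all genes tested. The lower count at this size was 19 when any of the 3 IL-10-producing libraries was left out. All 13 members called higher were immunoglobulin genes or Jchain, and all 17 called lower were T-cell receptor genes. Members with no or few counts in 1 group could pass the filter through the other group alone. Jchain and most immunoglobulin genes called higher passed through the IL-10-producing libraries alone, including members with counts in both groups. Most T-cell receptor V segments called lower passed through the IL-10-negative libraries alone. For such members the filter favoured 1 direction, so the 13 and 17 rest partly on it and describe only members that passed. Ighm, Igkc and the T-cell receptor constant genes had enough counts to pass through either group.

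Among the constant genes, which held 93.7% to 96.5% of member counts, a T-cell receptor γ gene was the most abundant per length in both populations. Tcrg-C1 (ENSMUSG00000076749.2, chromosome 13, 19214103 to 19217024, mm10) stood at 71.6 CPM per kb of exon in IL-10-producing and 119 CPM per kb in IL-10-negative libraries. Tcrg-C4 stood at 62.1 against 94 CPM per kb. Trbc2, the T-cell receptor β constant gene of the downstream cluster, stood at 69.7 against 84.3 CPM per kb. Ighm, the μ heavy-chain constant gene, was at 14 against 10.7 CPM per kb, and Igkc, the κ light-chain constant gene, at 12 against 3.77. Trac, the T-cell receptor α constant gene, was at 0.458 against 6.37 CPM per kb.

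**Figure D1:**
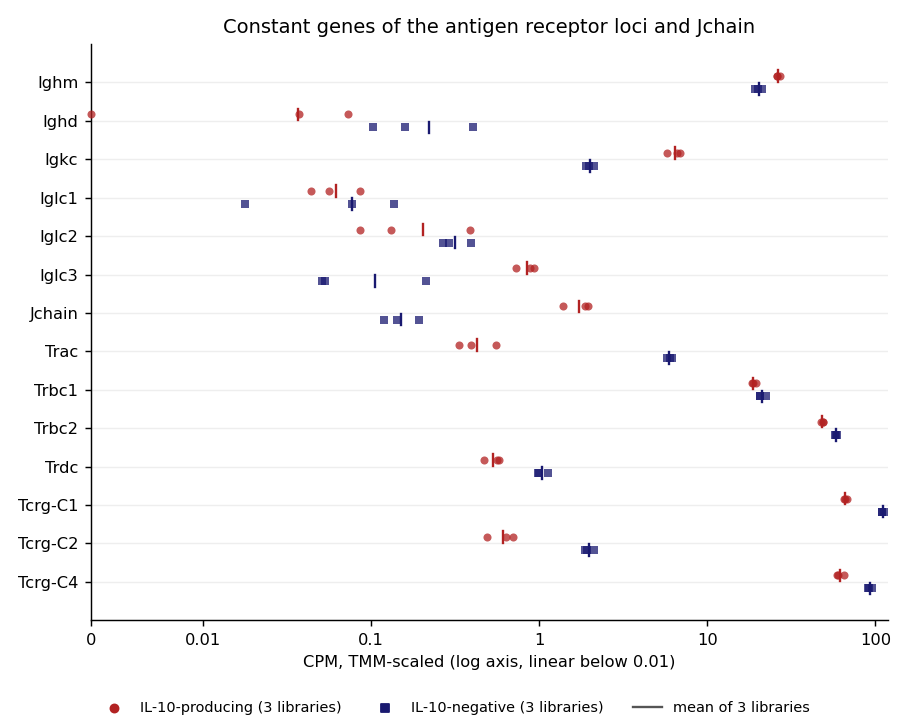
Level of each constant gene and of Jchain in CPM (horizontal axis, logarithmic above 0.01 and linear below) in the 3 IL-10-producing (circles) and 3 IL-10-negative (squares) libraries, with a vertical bar at the mean. Ighm, Igkc, Iglc3 and Jchain lay higher in every IL-10-producing library than in any IL-10-negative library, and every T-cell receptor constant gene lay lower.

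Ighm rose slightly in IL-10-producing cells. It held 26.1, 27 and 26 CPM in IL-10-producing libraries and 19.3, 21.1 and 20.1 CPM in IL-10-negative libraries, without overlap (log2 fold change 0.39 ± 0.0497 SE, adjusted p = 6.34e-07). Igkc rose more, from 2.01 ± 0.12 CPM to 6.38 ± 0.587 CPM (SD, n = 3). Its counts were 368, 392 and 308 in IL-10-producing and 103, 111 and 120 in IL-10-negative libraries, a ratio of 3.18 between the means (log2 fold change 1.67 ± 0.119 SE, adjusted p = 2.42e-11). The groups were far apart relative to their spread.

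The λ light-chain constant genes did not move together. Iglc3 had 50, 50 and 41 counts against 11, 3 and 3 and rose (log2 fold change 3.01, SE 0.435, adjusted p = 3.94e-06). This gene passed the filter through the IL-10-producing libraries alone. Iglc2 had 21, 9 and 4 counts against 15, 23 and 15, and its groups overlapped (log2 fold change -0.64, adjusted p = 0.328). Without the first IL-10-producing library, the highest of its group, Iglc2 was called lower (log2 fold change -1.49, adjusted p = 0.0487). Iglc1, with 10 against 13 counts, was below the filter. Iglc3 overlaps an unnamed gene model on the opposite strand, and the sources used here do not give the strandedness of counting.

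Jchain, which joins IgM and IgA into polymers and is made by antibody-secreting cells, showed a large rise. It had 105, 95 and 87 counts in IL-10-producing libraries and 10, 7 and 8 in IL-10-negative libraries (1.73 ± 0.303 against 0.152 ± 0.0377 CPM, SD, n = 3). The means differed 11.4-fold, with a log2 fold change of 3.5 ± 0.305 SE (adjusted p = 9.4e-10), and the groups did not overlap. Jchain passed the filter through the IL-10-producing libraries alone. Ighd, the δ heavy-chain constant gene of mature naive B cells, went the other way, with 2, 5 and 0 counts against 21, 6 and 9. It was below the filter and has no test in the main fit, and the ratio of its summed counts was 0.192 (95% exact interval 0.072 to 0.437). In the edgeR fit without a filter its log2 fold change was -2.4 (adjusted p = 0.0259). Ratio intervals here and below cover counting error only.

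All T-cell receptor constant genes with a row fell in IL-10-producing cells. Trac (chromosome 14, 54220521 to 54224206) showed the largest change, with 18, 27 and 26 counts against 296, 349 and 348 (log2 fold change -3.81 ± 0.169 SE, adjusted p = 2.44e-15), 13.9-fold lower. Both TRB constant genes stayed far above Trac and changed little. Trbc1 averaged 18.8 ± 0.545 against 21.2 ± 0.907 CPM, a log2 fold change of -0.17 (adjusted p = 0.0145). Trbc2 averaged 48.2 ± 0.711 against 58.4 ± 0.653 CPM, a log2 fold change of -0.28 (adjusted p = 2.76e-07). The call for Trbc1 was lost without IL-10-producing replicate 1, IL-10-producing replicate 3 or IL-10-negative replicate 3 (adjusted p = 0.0553, 0.0532 and 0.0922).

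How reads from shared sequence divide between Trbc1 and Trbc2 is uncertain. Of the 50-base words of Trbc1, 40.5% also occur in Trbc2, and 44% of those of Trbc2 occur in Trbc1. Their first exons, 375 bases each, differ at 1 base, exon position 260 counted from the exon's first base. The windows around it, from the GENCODE M21 transcripts on the plus strand of mm10 with the differing base in capitals, show how little separates the pair in this exon.
Trbc1, chr6:41538447-41538506: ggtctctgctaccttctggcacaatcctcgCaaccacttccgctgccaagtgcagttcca
Trbc2, chr6:41546959-41547018: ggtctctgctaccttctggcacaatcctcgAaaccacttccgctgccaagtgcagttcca
Summed to 1 row before the fit, an alternative added after seeing the data, the pair fell with a log2 fold change of -0.25 (adjusted p = 2.56e-07).

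In the γ and δ loci, Tcrg-C1 dropped to 66.1 ± 1.59 CPM, against 110 ± 2.57 CPM in IL-10-negative libraries, a log2 fold change of -0.74 ± 0.0291 SE (adjusted p = 2.16e-16). Tcrg-C4 dropped to 61.2 ± 3.23 CPM, against 92.6 ± 2.85 CPM, a log2 fold change of -0.6 (adjusted p = 4.57e-13). Tcrg-C2, at a low level, dropped further, to 0.608 ± 0.106 against 1.97 ± 0.132 CPM, a log2 fold change of -1.68 (adjusted p = 7.56e-07). Trdc, the δ constant gene, had 30, 32 and 27 counts against 51, 66 and 56 (log2 fold change -0.96, adjusted p = 0.00486). None of these groups overlapped. Of 7 tested γδ T-cell markers 5 were called lower, against 18.6% of all genes tested. Zbtb16 and Cd163l1 were among these (log2 fold changes -4.57 and -1.72, adjusted p = 4.75e-10 and 1.52e-06). Sox13 and Maf did not pass (log2 fold change -0.03 for Sox13, adjusted p = 0.937 and 0.918). The part of γδ T cells in the falls of the γ and δ constant genes was not tested. Trdc overlaps Trdv5 on the opposite strand, which had no row in the table. Of the 50-base words of Tcrg-C2, 18.2% also occur in Tcrg-C1. Of those of Tcrg-C1, 22.2% occur in Tcrg-C3, which had no row. The levels of Tcrg-C1 and Tcrg-C2 thus depend on how reads from shared sequence were divided.

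V segments were scarce. The 32 IG V rows are among 218 IG V genes of GENCODE M21, and the 46 TR V rows among 144. The TRB locus was covered best, with 18 of 22 V genes, and TRA with 21 of 108. Each V segment ends just after the codon of a conserved cysteine, where the hypervariable CDR3 loop begins, and all 78 V members had an in-frame cysteine codon near the end of the coding sequence. The last 60 coding bases are shown for V segments on which the results turn, 5′ to 3′ on the coding strand of mm10 as annotated in GENCODE M21, with the cysteine codon in capitals. The first 5 are immunoglobulin segments called higher in IL-10-producing cells, the next 4 are T-cell receptor segments called lower, and Trdv4 is the most abundant V segment of the δ locus, which did not pass the test.
Ighv11-2, chr12:114048241-114048300, minus strand: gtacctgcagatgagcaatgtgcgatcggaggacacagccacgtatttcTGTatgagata
Ighv10-1, chr12:114479005-114479064, minus strand: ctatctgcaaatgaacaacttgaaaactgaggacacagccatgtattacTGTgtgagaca
Igkv14-126, chr6:67896583-67896642, plus strand: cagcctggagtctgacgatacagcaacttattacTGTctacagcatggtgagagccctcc
Igkv10-96, chr6:68631963-68632022, minus strand: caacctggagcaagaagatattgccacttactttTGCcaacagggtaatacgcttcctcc
Iglv1, chr16:19085017-19085076, minus strand: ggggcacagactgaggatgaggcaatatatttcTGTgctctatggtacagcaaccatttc
Trbv19, chr6:41178989-41179048, plus strand: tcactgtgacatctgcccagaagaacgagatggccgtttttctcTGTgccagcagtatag
Trbv13-2, chr6:41121773-41121832, plus strand: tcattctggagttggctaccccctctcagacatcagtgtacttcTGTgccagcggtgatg
Trbv29, chr6:41271822-41271881, plus strand: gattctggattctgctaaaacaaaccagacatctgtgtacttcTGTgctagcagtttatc
Trav11, chr14:53519800-53519859, plus strand: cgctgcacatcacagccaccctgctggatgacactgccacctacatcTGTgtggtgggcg
Trdv4, chr14:54075456-54075515, plus strand: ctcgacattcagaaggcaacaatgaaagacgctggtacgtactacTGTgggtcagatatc
The 5 immunoglobulin segments keep 8 bases after this codon in the heavy-chain segments and 23 or 24 in the light-chain segments, whereas the 4 αβ T-cell receptor segments keep 10 to 14.

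Summed over a locus, immunoglobulin V segments were higher in IL-10-producing libraries. IGH V segments summed to 3.87, 4.36 and 3.96 CPM in IL-10-producing libraries and to 0.85, 0.87 and 0.657 CPM in IL-10-negative libraries, a 5.13-fold difference. IGK V segments summed to 4.85, 4.82 and 5.3 CPM against 0.965, 1.11 and 1.3 CPM (4.44-fold). IGL V segments summed to 1.6, 1.59 and 1.82 CPM against 0.174, 0.137 and 0.142 CPM (11.1-fold). In all 3 immunoglobulin loci the groups were separate.

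The T-cell receptor α and β loci showed the reverse. TRB V segments summed to 0.297, 0.306 and 0.235 CPM in IL-10-producing libraries and to 5.35, 4.85 and 5.13 CPM in IL-10-negative libraries, 18.3-fold lower. TRA V segments summed to 0.279, 0.19 and 0.257 CPM against 1.6, 2.13 and 2.15 CPM, 8.12-fold lower. TRG V segments were 2.52-fold lower, at 0.754 ± 0.162 against 1.9 ± 0.246 CPM. TRD V segments overlapped between the groups, at 1.15 ± 0.343 against 1.07 ± 0.433 CPM. With 3 libraries against 3, an exact permutation test of such sums cannot go below p = 0.1, so their evidence is the separation of the libraries.

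**Figure D2:**
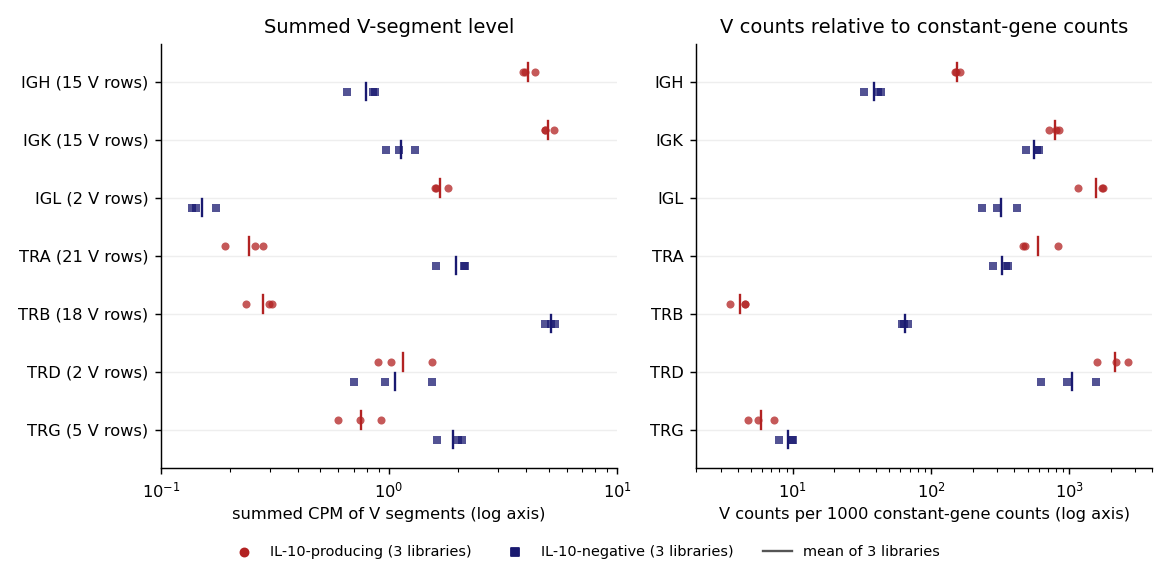
Left, summed CPM of the V segments of each locus (log axis); right, V counts per 1000 constant-gene counts of the same locus (log axis), for 3 IL-10-producing (circles) and 3 IL-10-negative (squares) libraries with bars at the mean. The V sums of IGH, IGK and IGL lie to the right in IL-10-producing libraries and those of TRA, TRB and TRG to the left, and TRB shows the widest gap in both panels.

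How far V counts moved with constant-gene counts differed by locus. In the TRB locus, V segments had 4.51, 4.49 and 3.52 counts per 1000 constant-gene counts in IL-10-producing libraries, against 68.3, 61.3 and 63.3 in IL-10-negative libraries. In the IGH locus the ratio went the other way, at 148, 161 and 152 against 43.1, 41.1 and 32.5. The TRG locus had few V counts in either population, at 4.74, 7.35 and 5.62 per 1000 against 9.89, 7.9 and 10.1. Thus the abundant TRB and TRG constant transcripts of IL-10-producing cells came with under 10 V counts per 1000 from the segments in the table. In the TRA locus V and constant counts were both low in IL-10-producing libraries, 40 and 71 in all, and the ratio, at 833, 481 and 462 against 280, 358 and 348, rests on these few counts. In the IGK locus V and constant genes were 4.44-fold and 3.18-fold higher, and the ratio was 785 ± 68.5 against 560 ± 65.4 per 1000. The ratio was 1552 ± 338 against 319 ± 94.3 in the IGL locus and 2151 ± 534 against 1051 ± 480 in the TRD locus, where counts were also few.

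Among immunoglobulin heavy-chain segments, Ighv11-2 led in IL-10-producing cells. This segment is known from B-1 cells, innate-like B cells, where it is often paired with Igkv14-126 in antibodies that bind phosphatidylcholine. It had 88, 110 and 64 counts in IL-10-producing libraries and 9, 5 and 3 in IL-10-negative libraries (log2 fold change 3.88, SE 0.347, adjusted p = 1.49e-09). Ighv10-1 had 29, 54 and 36 counts against 0 in each IL-10-negative library, at least 39.1-fold higher against a floor of 3 counts over that group (adjusted p = 3.11e-08). Ighv11-2, Ighv10-1 and Ighv14-3 passed the filter through the IL-10-producing libraries alone. Ighv14-3 had 20, 29 and 23 counts against 4, 4 and 1 (log2 fold change 2.93, adjusted p = 6.35e-05). Ighv2-6 had 31, 30 and 33 against 13, 26 and 23, and its scaled levels overlapped (log2 fold change 0.61, adjusted p = 0.183).

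The heavy-chain V counts were concentrated. Ighv11-2 made up 37.9% of the 692 IGH V counts of IL-10-producing libraries (95% exact interval 34.2% to 41.6%, 34.6% to 42.3% in single libraries). Of its 50-base words, 38.6% also occur in Ighv11-1, which had no row, so part of its reads could stem from that segment. Ighv11-2, Ighv10-1, Ighv2-6 and Ighv14-3 together made up 79%. In IL-10-negative libraries, which had 132 IGH V counts, Ighv2-6 led with 47% (38.2% to 55.8%) and Ighv11-2 had 12.9% (7.68% to 19.8%). Of the 15 IGH V rows, 7 were higher in every IL-10-producing library than in any IL-10-negative library and none were lower. Over all rows of the table, 18.5% were separated in this direction. Of the 15 rows, 6 had no count in IL-10-negative libraries and have a row through the IL-10-producing libraries alone. The other 11 IGH V segments were below the filter, with 3 to 22 counts each over the 3 IL-10-producing libraries and 0 to 14 over the 3 IL-10-negative libraries.

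Light-chain segments followed. Igkv14-126 had 56, 56 and 83 counts against 3, 5 and 9 (log2 fold change 3.52, SE 0.418, adjusted p = 1.92e-07). Igkv10-96 had 48, 45 and 48 counts against 0, 2 and 3 (log2 fold change 4.73, adjusted p = 7.17e-08). Neither segment's groups overlapped, and both passed the filter through the IL-10-producing libraries alone. Igkv4-72, with 35, 35 and 18 counts, and Igkv2-137, with 30, 32 and 15, had no count in any IL-10-negative library and were at least 28.9-fold and 25.3-fold higher. These passed the filter through the IL-10-producing libraries alone. Igkv2-137 overlaps an unnamed gene model on the same strand. Iglv1, the main λ segment of mice, had 80, 105 and 81 counts against 7, 6 and 6 (log2 fold change 3.77, SE 0.314, adjusted p = 4.19e-10) and made up 95% of the IGL V counts of IL-10-producing libraries. Iglv1 too passed the filter through the IL-10-producing libraries alone. Of its 50-base words, 22.2% also occur in Iglv2, and 31% of those of Igkv10-96 occur in Igkv10-94.

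Among the 5 κ segments that passed the filter, Igkv1-110 had the smallest log2 fold change. It had 45, 91 and 35 counts against 31, 37 and 31 (log2 fold change 0.73, adjusted p = 0.0421). Without IL-10-producing replicate 2, which holds the 91 counts, the log2 fold change was 0.42 (adjusted p = 0.367), and the call was also lost without any of the 3 IL-10-negative libraries (adjusted p = 0.0676 to 0.104). It made up 52.7% of the 188 IGK V counts of IL-10-negative libraries and 20.4% of the 839 of IL-10-producing libraries. About 50.3% of its 50-base words also occur in Igkv1-117, so its reads could be split between them. Igkv8-19, singled out after its values were seen, was the only IGK V segment lower in every IL-10-producing library, with 0 counts against 4, 7 and 3.

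**Figure D3:**
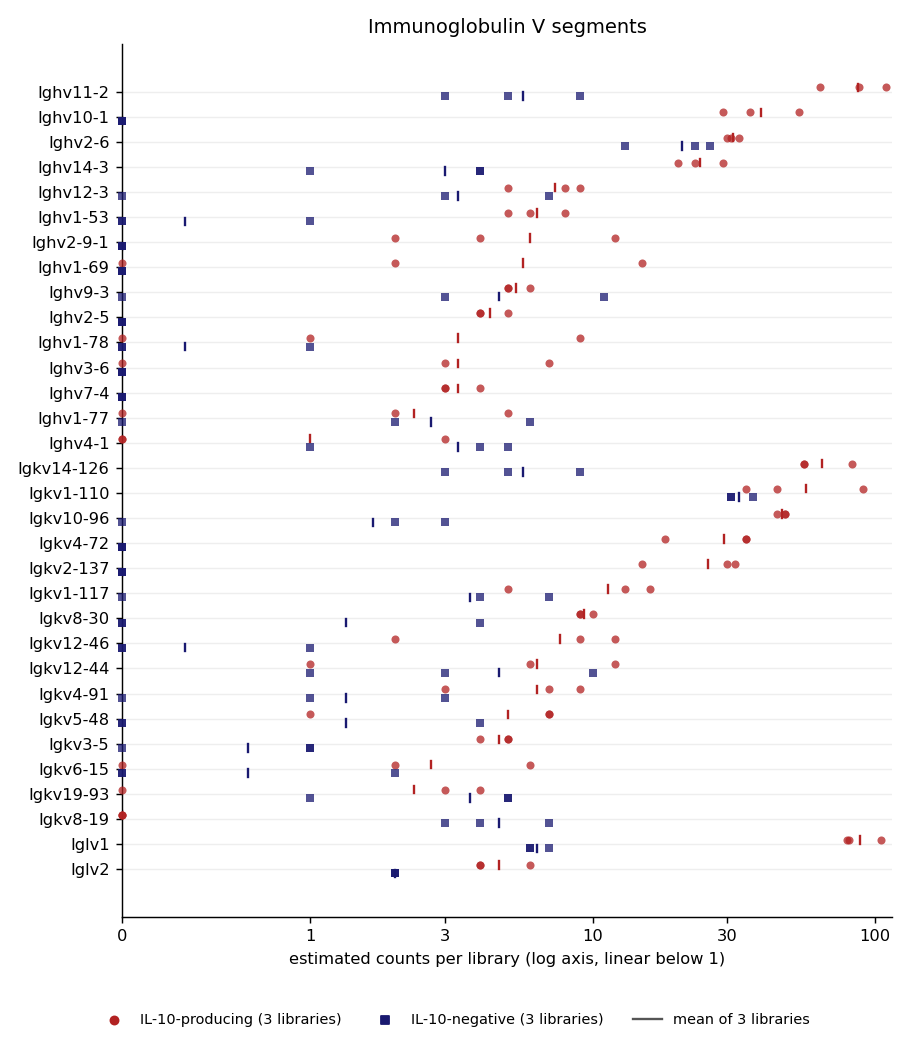
Estimated counts per library (horizontal axis, logarithmic above 1 and linear below) of the 32 immunoglobulin V segments, ordered by locus and by counts in the IL-10-producing libraries (circles), with IL-10-negative libraries as squares and bars at the mean. Ighv11-2, Igkv14-126 and Iglv1 show the highest counts in IL-10-producing libraries, and Ighv10-1, Igkv4-72 and Igkv2-137 sit at 0 in all 3 IL-10-negative libraries.

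T-cell receptor β segments formed the broadest set of falls. Trbv19 had 7, 0 and 1 counts in IL-10-producing libraries and 44, 37 and 50 in IL-10-negative libraries (log2 fold change -3.98, SE 0.554, adjusted p = 2.22e-06). Trbv1 had 1, 12 and 5 counts against 31, 52 and 41 (log2 fold change -2.79, SE 0.45, adjusted p = 1.82e-05). Trbv13-2 had 3, 2 and 0 counts against 25, 24 and 37 (log2 fold change -4.03, SE 0.586, adjusted p = 4.33e-06). For none of the 3 did the groups overlap. The 4 further TRB V segments that passed the filter, all called lower, are named after their values were seen. All 7 TRB V segments tested passed the filter through the IL-10-negative libraries alone. The filter thus favoured segments higher in that group, and the number called lower rests partly on it. Trbv29, Trbv13-1 and Trbv14 had no count in any IL-10-producing library and were at least 23.7-fold, 23.3-fold and 13.5-fold lower. Trbv3 had 2 counts against 44, a ratio of 0.0448 (95% exact interval 0.00526 to 0.172).

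All 18 TRB V segments had counts in every IL-10-negative library, and no segment dominated there. Trbv19 made up 15.4% of the 850 TRB V counts (13% to 18%), Trbv1 14.6% (12.3% to 17.1%) and Trbv13-2 10.1% (8.17% to 12.3%). The 48 TRB V counts of IL-10-producing libraries came from 10 segments, and 8 segments had none. Of the 18 segments, 16 were lower in every IL-10-producing library than in any IL-10-negative library, against 20.5% of all rows of the table. The 8 segments without counts in IL-10-producing libraries have a row through the IL-10-negative libraries alone, so the number separated describes only segments with a row. Trbv2 and Trbv20 overlapped.

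In the TRA locus, Trav11, singled out after its values were seen, was the only V segment to pass the filter, through the IL-10-negative libraries alone. It encodes the variable part of the invariant α chain of natural killer T cells. It had 0, 2 and 0 counts against 15, 18 and 30 (log2 fold change -4.76, SE 0.741, adjusted p = 1.12e-05) and made up 19.1% of the 329 TRA V counts of IL-10-negative libraries (15% to 23.8%). Of its 50-base words, 99.7% also occur in Trav11d, so reads of these copies cannot be told apart. Of the 21 TRA V segments, 16 were lower in every IL-10-producing library than in any IL-10-negative library, against 20.5% of all rows, and 10 had no count in the IL-10-producing libraries. The smallest row total of the table was 10, so these 10 segments have a row through the IL-10-negative libraries alone. Segments with few counts in both groups could lack a row, so the number separated describes only segments with a row. The pairs Trav14d-1 and Trav14n-1, Trav3d-3 and Trav3n-3, and Trav9d-3 and Trav9n-3 share 100% of their words and had the same counts within each pair, so they are not independent.

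Of 5 γ V segments, 4 passed the filter, of which Tcrg-V1, Tcrg-V4 and Tcrg-V5 passed through the IL-10-negative libraries alone. Of these 4, 2 were called lower and 0 higher, against 18.6% and 17.1% of all genes tested. Trgv2 had 24, 30 and 14 counts against 47, 54 and 47 (log2 fold change -1.15, SE 0.296, adjusted p = 0.00317). Tcrg-V4, named after its values were seen, had 0, 4 and 2 counts against 23, 11 and 25 (log2 fold change -3.26, adjusted p = 0.000225), and it overlaps an unnamed gene model on the opposite strand. Tcrg-V1 (log2 fold change -1.09, adjusted p = 0.0761) and Tcrg-V5 (log2 fold change -1.02, adjusted p = 0.135) did not pass. Trdv4 had 45, 68 and 72 counts against 76, 38 and 46, with overlapping groups (log2 fold change 0.2, SE 0.284, adjusted p = 0.646), and it held 97.4% of the TRD V counts in IL-10-producing and 91.4% in IL-10-negative libraries. It was the most abundant T-cell receptor V segment of IL-10-producing libraries, at 2.53 CPM per kb against 2.2 CPM per kb in IL-10-negative libraries.

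**Figure D4:**
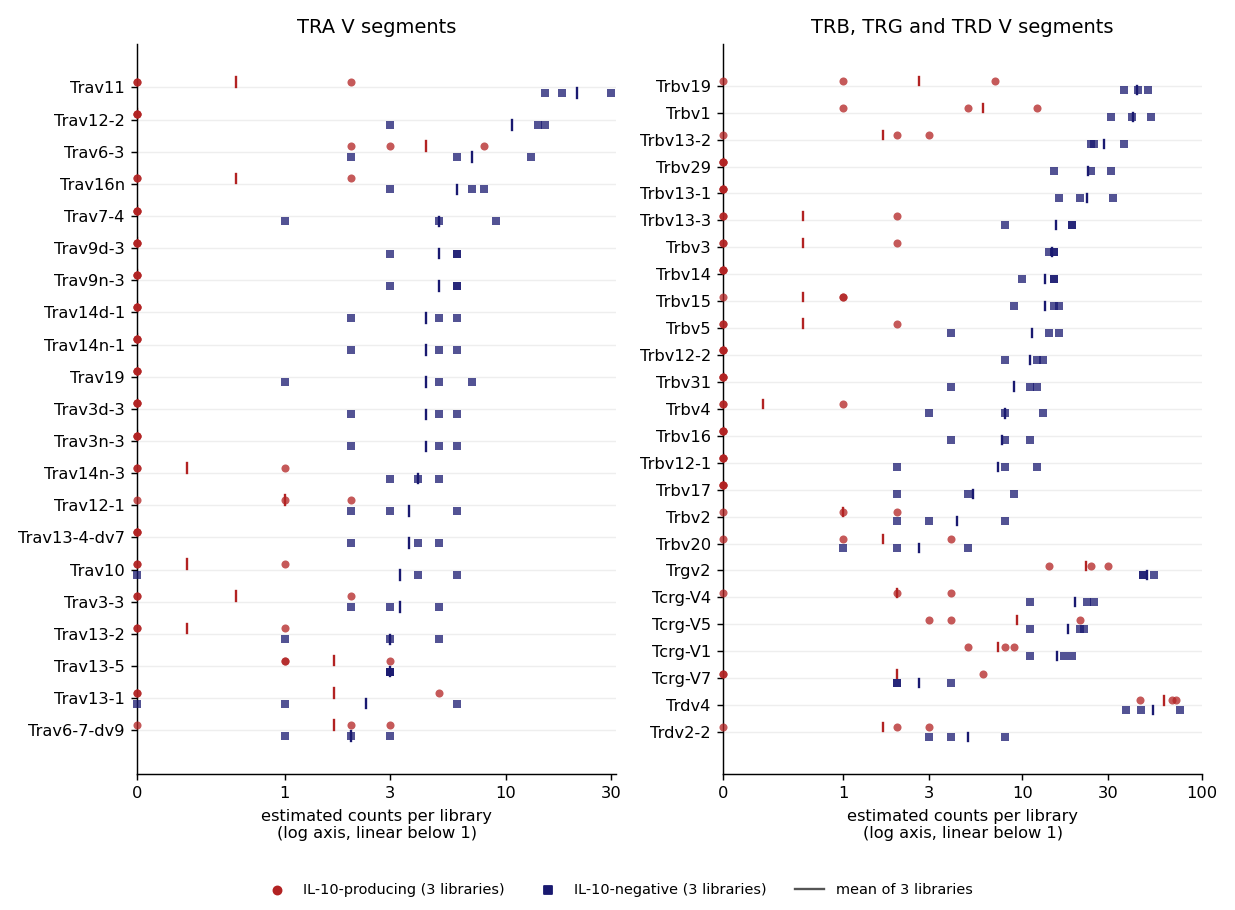
Estimated counts per library (horizontal axes, logarithmic above 1 and linear below) of the 21 TRA V segments (left) and the 18 TRB, 5 TRG and 2 TRD V segments (right), ordered within a locus by counts in the IL-10-negative libraries (squares), with IL-10-producing libraries as circles and bars at the mean. Most TRA and TRB segments sit at or near 0 in IL-10-producing libraries, whereas Trdv4 overlaps between the groups.

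Most companion genes of the T-cell receptor were also lower in IL-10-producing cells, as were most of the neutrophil and natural killer cell markers tested. Of 27 genes of the receptor complex and its proximal signalling, 26 were tested, 22 were called lower and 1 higher (18.6% and 17.1% over all genes tested), with a median log2 fold change of -1.08 against -0.004 over all genes tested. Cd3e, a signalling chain of the complex, was at 1.25 ± 0.0789 against 8.19 ± 0.283 CPM, a log2 fold change of -2.71 (adjusted p = 1.27e-15). Cd3d averaged 0.45 ± 0.0216 against 6.21 ± 0.342 CPM, a log2 fold change of -3.78 (adjusted p = 5.3e-16). The coreceptor genes Cd8a and Cd8b1, which mark cytotoxic T cells, were at 0.0594 ± 0.0043 against 15.3 ± 0.408 CPM and at 0.0809 ± 0.0756 against 8.01 ± 0.25 CPM. Ubash3a, a phosphatase-family regulator of receptor signalling, was the gene called higher (log2 fold change 0.09, adjusted p = 0.0437), and this call was lost under other settings. Of the 14 αβ T-cell markers, which share 11 genes with this list, 12 were lower and 1 higher, and their part in the fall of the TRA and TRB segments was not tested.

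Companion genes of the B-cell receptor did not follow the immunoglobulin segments. Of 20 genes, 16 had a row and 11 were tested, of which 8 were called lower and 1 higher (median log2 fold change -0.99), against 18.6% and 17.1% of all genes tested. Ms4a1, a surface marker of B cells, was lower, at 0.0896 ± 0.0164 against 0.525 ± 0.212 CPM (adjusted p = 0.000106). Btk, the B-cell tyrosine kinase, was also lower (log2 fold change -1.41, adjusted p = 2.21e-05). Fcmr, the receptor for the IgM Fc part, was the gene called higher, with 8.9 ± 0.747 against 4.76 ± 0.213 CPM and a log2 fold change of 0.91 (adjusted p = 1.05e-08). Cd79a, a signalling chain of the receptor, was lower at 0.469 ± 0.106 against 0.938 ± 0.0778 CPM, and Cd79b was at 15.5 ± 0.741 against 14.5 ± 0.522 CPM (adjusted p = 0.204).

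In the plasma-cell programme, 12 of 13 genes had a row and were tested, of which 5 were called higher and 2 lower (median log2 fold change 0.13), against 17.1% and 18.6% of all genes tested. Prdm1, Xbp1 and Edem1, which act in antibody secretion and also in other cells, rose by small amounts, with log2 fold changes of 0.19, 0.17 and 0.16 (adjusted p = 3.1e-07, 7.7e-07 and 3.29e-07), and Pim2, a survival kinase, fell (log2 fold change -0.25, adjusted p = 1.12e-07). The widest change in the list was a fall, that of Slamf7, a surface receptor of plasma cells and other leukocytes, from 0.44 ± 0.166 to 0.0804 ± 0.0659 CPM (log2 fold change -2.47, adjusted p = 0.000621). Mzb1, a chaperone of IgM assembly, rose from 0.184 ± 0.0763 to 0.588 ± 0.226 CPM (log2 fold change 1.64, adjusted p = 0.00256). Sdc1, the surface marker of plasma cells, was at 2.73 ± 0.0991 against 2.81 ± 0.621 CPM (adjusted p = 0.872). The part of plasma cells in the rise of Jchain and the immunoglobulin segments was not tested. Slamf7, Mzb1, Sdc1, Cd79a, Cd79b, Ubash3a and Rag1 lie outside the rule for named genes and were chosen after their values were seen.

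Of 15 genes of V(D)J recombination, 12 had a row and 11 were tested, with 2 called higher and 1 lower (median log2 fold change 0.01), a share near the 35.7% of all genes tested that were called either way. Hmgb2, a DNA-bending protein that aids the recombinase, rose (log2 fold change 0.33, adjusted p = 7.46e-13), as did Prkdc, a kinase of end joining (log2 fold change 0.1, adjusted p = 0.0179), and Polm, a polymerase of end joining, fell (log2 fold change -0.16, adjusted p = 0.0133). Rag1, a recombinase subunit, had no count in IL-10-producing libraries and 0.0699 ± 0.0501 CPM in the others, and Rag2 and Dntt had no row. Of 15 measured genes of class switching and germline transcription, 4 were called higher and 6 lower (median log2 fold change -0.02), against 17.1% and 18.6% of all genes tested, with Tcf7, a T-lineage transcription factor, having 0.262 ± 0.141 against 14.5 ± 0.86 CPM and a log2 fold change of -5.76 (adjusted p = 1.25e-19). Of 6 tested Fc receptor genes 5 were lower and none higher (median log2 fold change -1.99), again beside 18.6% of all genes called lower, and they included Fcgr2b, the inhibitory IgG receptor, at 0.214 ± 0.0426 against 2.88 ± 0.303 CPM. All 11 mast-cell and basophil markers were lower too, with summed levels of 98.1 to 101 against 237 to 241 CPM, most of it from Kit (84.6 against 164 CPM).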

How the data were processed

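RNA sequencing of 3 IL-10-producing and 3 IL-10-negative libraries was analysed, each made from 10 ng of total RNA per the labels. Per the submitters' processing notes, the tools included Partek, STAR 2.5.3a and bcl2fastq 2.17.1.14, on build mm10. The count table that the authors deposited holds estimated counts, not normalized between libraries, in 21017 rows with a smallest row total of 10. A further deposited table holds normalized signal values of 13824 genes, of which 18 are members. The annotation release and the strandedness of counting were not given in the sources used here. All 92 members had the same coordinates in GENCODE M21 (GRCm38) once 1 was subtracted from the listed stop.

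After rounding, the estimated counts of all genes were fitted in edgeR 4.0.16 (R 4.3.3) and tested by quasi-likelihood, with TMM factors, filterByExpr defaults (minimum count 10, minimum total 15) and group as the only term. Adjusted p-values are Benjamini-Hochberg values over 16654 genes, called under 0.05, and the script was tested on simulated data. Levels are TMM-scaled CPM with the SD over the 3 libraries of a group, and a positive log2 fold change means higher in IL-10-producing cells. Each SE is the absolute log2 fold change divided by the square root of the F statistic. It is an approximation, rough for members with few counts. Intervals are exact binomial at 95%. Near-identical copies were found as shared 50-base words over GENCODE M21 transcripts.

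The members, the gene lists and the marker lists were chosen with earlier results of these data known. Named members were every constant gene, Jchain, and each V segment that was called and reached 0.5 CPM in its higher group or that reached 2 CPM in either. From each companion list the 4 genes with the smallest p were to be named. Results of some list genes are not reported here. Other members and list genes in the text were chosen after their values were seen. The rule also ranked genes by likeness over the 6 libraries, which is not reported because the libraries form 2 separate groups. Replicate numbers did not pair the libraries. Other settings tried were limma-voom, limma 3.58.1 on log2 of the normalized values plus 1, DESeq2 1.42.0, its size factors within edgeR, scaling by library size alone, a filter of 50 counts in 3 libraries or none, the replicate block, sums without the most abundant member, leaving out each library and, added after seeing the data, near-identical members (at least 40% shared words) summed.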

Additional observations from a re-analysis of the deposited data

How the results depend on the processing

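With 13 members higher and 17 lower, the counts were 20 and 39 of 92 without a filter, 6 and 7 of 14 at 50 counts or more in 3 libraries, and 7 and 9 of 18 with limma on the normalized values. DESeq2 called 28 lower. At 2-fold or more (11 higher, 12 lower) they were 18 and 34, 5 and 2, and 4 and 1, and DESeq2 called 23 lower. The lower count ran from 14 to 19 when single libraries were left out. These settings test different numbers of members, since most segments have few counts. Same-numbered libraries did not deviate together (correlations 0.008, -0.051 and -0.052 over 9575 genes), and with the replicate number as a block 12 members were higher and 17 lower. Near-identical members summed gave 13 higher and 16 lower of 34.

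In the T-cell receptor list the 1 higher gene became 0 with library size only, without a filter and with DESeq2 (0 to 1 leaving out libraries). In the B-cell receptor list the 8 lower genes became 3 at 50 counts or more and 5 with limma on the normalized values. In the plasma-cell list 2 lower genes became 1 under both of these settings. In the V(D)J list the 2 higher genes became 1 with library size only (1 to 2 leaving out libraries), and the 1 lower gene became 2 with library size only or without a filter (0 to 2 leaving out libraries).

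Without its most abundant member the summed log2 ratio of a class reversed to -2.6 for IGH constant genes (Ighd alone), to -0.57 for IGL constant genes and to -1.67 for TRD V segments. The TRD V sum ran from -0.16 to 0.47 when single libraries were left out, -0.16 without IL-10-producing replicate 3 and -0.12 without IL-10-negative replicate 2. The other sums kept their direction under every setting run. Of the 25 named members, Igkv1-110 lost its call with library size only, DESeq2, limma-voom, limma on the normalized values and the replicate block (adjusted p = 0.0519, 0.0962, 0.0547, 0.0586 and 0.0594). Apart from Igkv1-110, Trbc1 and Iglc2 (leave-out values in the report), named members kept their side of the threshold wherever they were tested. V segments with under 10 counts per library limit what this depth can resolve.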
